A study of Mus musculus with 6 samples.

Results

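Oxidative phosphorylation is carried out by 5 protein complexes in the inner mitochondrial membrane, and the genes described here encode their nuclear subunits, with the Ndufaf assembly factors of complex I. They were taken by gene symbol: probes mapped through their accession to a symbol beginning with Nduf, to Sdha to Sdhd, or to a symbol beginning with Uqcr, Cox4 to Cox8 or Atp5, leaving out the muscle isoforms Cox6a2, Cox7a1 and Cox8b. This gave 121 probes for 90 genes, of 39429 probes on the array, and 88 of these genes were among the 17991 genes tested. The mitochondrially encoded subunits were not analysed here.

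Complexes I and II take electrons from NADH and succinate and pass them to ubiquinone, complex III passes them on to cytochrome c, and complex IV passes them to oxygen. Complexes I, III and IV pump protons as they do so, and complex V, the ATP synthase, lets protons back and makes ATP. Mitochondria of hepatocytes also take up calcium released from the endoplasmic reticulum through inositol trisphosphate receptors, of which Itpr2 is the main one in hepatocytes, and matrix calcium stimulates several dehydrogenases that feed the chain.

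Livers came from 3 Itpr2KO and 3 WT mice on the C57Bl/6 background, independent animals of a survival cohort aged 23 months, given no treatment and kept pathogen-free on standard diet. The labels give neither which exons of Itpr2 are deleted nor any Cre or promoter. Total RNA of each liver was read on 1 single-colour Agilent array, and between 57.3% and 59.4% of probes were well above background on each. Itpr2 had levels of 2.54, 2.38 and 2.20 in Itpr2KO livers, against 3.04, 3.07 and 3.08 in WT livers, so every Itpr2KO array lay below every WT array.

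A level is the log2 processed signal less the array's own 75th percentile, and a change is the mean level in Itpr2KO livers minus that in WT livers. Levels of different probes are not comparable with each other. In whole liver, fewer cells of a type and less RNA per cell cannot be told apart. The hepatocyte markers were high on every array, with a summed level from 10.9 to 11.3 in Itpr2KO livers and from 10.8 to 11.01 in WT livers. The striated muscle list, of which 7 of 16 markers were tested, had a summed level of -0.23, 0.49 and 5.87 in Itpr2KO livers and of 5.79, 0.58 and 0.41 in WT livers, so Itpr2KO 3 and WT 1 carried muscle transcripts and the other 4 arrays carried little.

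No gene of oxidative phosphorylation passed a test for a difference between Itpr2KO and WT livers. By limma with Benjamini-Hochberg adjustment over all genes, 0 of the 88 passed an adjusted p of 0.05, against 0.00556% of all genes tested, which is 1 gene, Mansc4. Itpr2 itself, with a change of -0.69 ± 0.13 (SE), did not pass, at a limma p of 0.0017 unadjusted and 0.811 adjusted. At an unadjusted p under 0.05, 0 of the 88 were past the threshold in either direction, against 6.13% of all genes. In 0 of the 86 members measured on all 6 arrays did the 3 Itpr2KO arrays lie apart from the 3 WT arrays. Of the 17881 genes so measured, 6.9% lay apart on the higher side and 5.15% on the lower.

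The median change of the 88 genes was -0.01, against 0.02 over all genes. A mean level of at least 5 was reached by 63.6% of the members, against 6.67% of the other genes. The other genes at that level had a median change of 0.10, and 27.4% of them had a lower mean in Itpr2KO livers. The members thus lay further below these bright genes than below all genes. The mean was lower in Itpr2KO livers for 49 of the 88, or 55.7%, against 45.9% of all genes, but this share depends on the scaling. It was 86.4% when arrays were centred on their median, against 60.6% of all genes, and 83% under quantile scaling, against 50.3% of all genes. Median centring moved the members' median to -0.09 and that of all genes to -0.06, so the members lay 0.03 below all genes on either scale. Under quantile scaling and under normexp they lay 0.08 below all genes. Changes ranged from -0.55 for Ndufaf4 to 0.59 for Ndufa4l2, and 81 of the 88 were smaller than 0.2 in size, a share of 92.0% against 59.7% of all genes. The median size of a change was 0.05, against 0.16 over all genes.

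The 95% interval of the change bounds what 3 arrays against 3 could have missed. It lay within a doubling or a halving for 86 of the 88 genes and within 1.5-fold for 74 of them, against 14374 and 8092 of the 17991 genes tested. The standard errors ran from 0.12 to 0.30. All 88 were well above background on every array where they were measured.

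**Figure D1:**
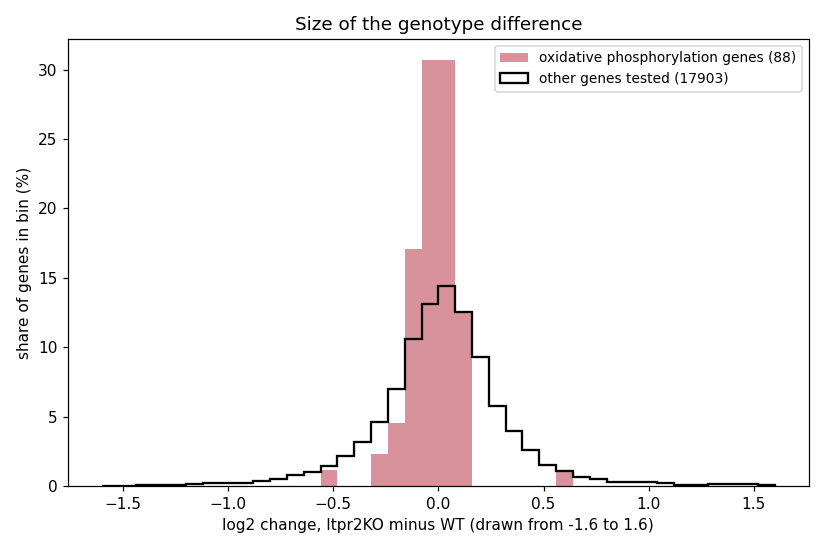
Share of genes (%, vertical axis) by log2 change, Itpr2KO minus WT (horizontal axis), for the 88 oxidative phosphorylation genes (filled) and all other genes tested (line). The members form a narrow peak around 0, with Ndufaf4 at -0.55 and Ndufa4l2 at 0.59 as the 2 genes farthest from it.

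Complex I, NADH dehydrogenase, had 36 measured subunits with a median change of -0.01, 20 of them with a lower mean in Itpr2KO livers. Its 7 nuclear core subunits, which take electrons from NADH towards ubiquinone, had a median of 0.02. Its 29 accessory subunits had a median of -0.01.

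Ndufv1, the subunit that binds NADH and the flavin, had levels of 5.21, 5.58 and 5.43 in Itpr2KO livers, against 5.14, 5.43 and 5.18 in WT livers, a change of 0.16 ± 0.16 (SE). Its partner Ndufv2, an iron-sulphur subunit, had 4.49, 4.92 and 4.795 in Itpr2KO livers, against 4.47, 4.66 and 4.62 in WT livers, a change of 0.15 ± 0.16 (SE). These were the largest positive changes in complex I, and in both genes the Itpr2KO and WT arrays overlapped.

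The largest negative changes in complex I were those of Ndufb3 and Ndufa6, an accessory subunit of the membrane arm and one that holds the mitochondrial acyl carrier protein. Ndufb3 had 4.33, 4.54 and 3.998 in Itpr2KO livers, against 4.45, 4.70 and 4.55 in WT livers, a change of -0.28 ± 0.17 (SE). Ndufa6 had 4.97, 4.41 and 5.26 in Itpr2KO livers, against 5.20, 5.11 and 5.13 in WT livers, a change of -0.27 ± 0.22 (SE). The Ndufa6 value rests on Itpr2KO 2, the lowest of the 6 arrays, while Itpr2KO 3 was the highest.

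The brightest probes of complex I were those of Ndufa13, also known as Grim-19, and Ndufs6, an accessory subunit that binds zinc. Ndufa13 had 6.84, 7.04 and 7.45 in Itpr2KO livers, against 7.04, 7.16 and 6.91 in WT livers. Ndufs6 had 6.43, 6.88 and 6.90 in Itpr2KO livers, against 6.67, 6.73 and 6.66 in WT livers. In each gene the Itpr2KO arrays held both the lowest and the highest value.

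The 8 Ndufaf assembly factors, which help to build complex I and are not part of the finished enzyme, had a median change of -0.07. Of the 8, 7 had a lower mean in Itpr2KO livers, against 45.9% of all genes. Ndufaf4, which acts early in assembly together with Ndufaf3, had 1.65, 1.29 and 0.95 in Itpr2KO livers, against 1.87, 2.20 and 1.48 in WT livers. Itpr2KO 1 lay above WT 3, so the genotypes overlapped at that pair of arrays. The change of Ndufaf4 was -0.55 ± 0.25 (SE), the adjusted p was 0.811 by limma, and an exact two-sided permutation test over the 6 arrays gave p = 0.20, where the smallest p that 3 against 3 can give is 0.1.

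A second probe for Ndufaf4 read 0.94, 0.40 and 0.15 in Itpr2KO livers, against 0.97, 1.20 and 0.70 in WT livers, a change of -0.46. Both Ndufaf4 probes thus put the same arrays low and high. Its unadjusted limma p passed 0.05 when Itpr2KO 1 or WT 3 was left out, at 0.033 and 0.032, and the adjusted p stayed at 0.516 and 0.986.

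Ndufaf1, which works in the membrane-arm assembly complex, had 1.64, 2.08 and 1.67 in Itpr2KO livers, against 1.90, 1.92 and 1.98 in WT livers. Ndufaf8, a partner of Ndufaf5, which modifies the core subunit Ndufs7, was the assembly factor with a higher mean, at -0.12, 0.51 and 0.44 in Itpr2KO livers, against 0.21, 0.02 and 0.29 in WT livers. Both sets of arrays overlapped. Of the 9 assembly factors of complex I whose symbols do not begin with Ndufaf, 6 had a lower mean, against 45.9% of all genes. At an unadjusted limma p under 0.05 there were 0 of the 9, against 6.13% of all genes. Dmac1 had 2.31, 2.34 and 2.34 in Itpr2KO livers, against 2.27, 1.72 and 2.18 in WT livers. Every Itpr2KO array of Dmac1 lay above every WT array, as in 1 of the 9, against 6.9% of all genes. Foxred1, an oxidoreductase-like factor, had 1.89, 1.91 and 1.612 in Itpr2KO livers, against 1.90, 2.00 and 2.06 in WT livers, and overlapped.

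Complex II, succinate dehydrogenase, belongs both to the respiratory chain and to the tricarboxylic acid cycle, and all 4 of its subunits were measured. Sdha, the flavoprotein, had 4.29, 4.86 and 4.34 in Itpr2KO livers, against 4.42, 4.71 and 4.62 in WT livers. Sdhb, the iron-sulphur subunit, had 5.54, 6.31 and 6.08 in Itpr2KO livers, against 5.85, 5.98 and 5.94 in WT livers. Of the membrane anchors, Sdhc had 4.36, 4.94 and 4.47 in Itpr2KO livers, against 4.51, 4.69 and 4.60 in WT livers.

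The other anchor, Sdhd, had 5.25, 5.56 and 5.43 in Itpr2KO livers, against 5.48, 5.59 and 5.32 in WT livers. In all 4 subunits Itpr2KO 1 was the lowest array, and the changes ran from -0.09 to 0.05 with a median of -0.03.

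Complex III, the cytochrome bc1 complex, had 8 measured subunits with a median change of -0.03, 6 of them lower in Itpr2KO livers. Uqcrq, a small subunit that contacts cytochrome b, had 6.53, 6.88 and 7.09 in Itpr2KO livers, against 6.63, 6.71 and 6.69 in WT livers, a change of 0.16 ± 0.17 (SE). Uqcrb, another subunit near cytochrome b, had 5.64, 5.96 and 5.70 in Itpr2KO livers, against 5.89, 5.88 and 5.92 in WT livers, a change of -0.13 ± 0.13 (SE). Neither separated the genotypes.

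The core protein Uqcrc1 had 3.30, 3.92 and 3.63 in Itpr2KO livers, against 3.67, 3.94 and 3.60 in WT livers. Uqcrh, the hinge protein at the cytochrome c1 side, had 6.42, 6.93 and 6.79 in Itpr2KO livers, against 6.69, 6.75 and 6.59 in WT livers. Uqcr11, the smallest subunit, had 6.35, 6.88 and 6.98 in Itpr2KO livers, against 6.74, 6.93 and 6.68 in WT livers. Itpr2KO 1 was the lowest array for each of these 3 genes, as for Uqcrq and Uqcrb. Uqcrfs1, the Rieske iron-sulphur protein, changed by -0.02 ± 0.12 (SE).

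Complex IV, cytochrome c oxidase, had 13 measured subunits with a median change of 0.00 and 5 lower means. Cox6a1 and Cox4i1 had its brightest probes. Cox6a1 had 8.06, 8.24 and 8.30 in Itpr2KO livers, against 8.20, 8.22 and 8.17 in WT livers. Cox4i1, a subunit that binds adenine nucleotides, had 6.97, 7.16 and 7.24 in Itpr2KO livers, against 7.21, 7.17 and 7.004 in WT livers. Their changes were 0.00 ± 0.12 and -0.01 ± 0.14 (SE).

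The largest positive change in complex IV was that of Cox7a2, with 5.37, 5.79 and 5.68 in Itpr2KO livers, against 5.45, 5.59 and 5.44 in WT livers. Cox7a2l, also called Scaf1, which joins complexes III and IV in supercomplexes, had 5.49, 5.88 and 5.94 in Itpr2KO livers, against 5.81, 5.60 and 5.62 in WT livers. Cox7c had 5.57, 5.87 and 5.66 in Itpr2KO livers, against 5.77, 5.97 and 5.70 in WT livers. These changes of 0.12, 0.09 and -0.11 were all below their standard errors.

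The less widely expressed paralogues Cox4i2 and Cox6b2 of complex IV also had overlapping genotypes, as did Cox6b1, the paralogue of Cox6b2. Cox4i2, an isoform known from lung, had -3.13, -2.77 and -2.32 in Itpr2KO livers, against -2.63, -2.81 and -2.72 in WT livers. Cox6b1 had 3.00, 3.31 and 3.09 in Itpr2KO livers, against 3.16, 3.39 and 3.26 in WT livers, and its change of -0.13 was the lowest of the complex. The testis isoform Cox6b2 had -2.70, -2.76 and -2.22 in Itpr2KO livers, against -2.45, -3.00 and -2.44 in WT livers.

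Cox8a, the ubiquitous form of a small membrane subunit, had 6.90, 7.26 and 7.02 in Itpr2KO livers, against 7.02, 7.16 and 6.99 in WT livers. Cox7b had 5.39, 6.24 and 6.51 in Itpr2KO livers, against 5.99, 6.00 and 6.06 in WT livers. Its Itpr2KO arrays spread on both sides of the WT arrays, which gave Cox7b the widest interval among the subunits of complexes I to V. Their paralogues Cox8c and Cox7b2, known from testis, were not above background on any of the 6 arrays and were not tested.

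Ndufa4 was named for complex I but is a subunit of complex IV, and Ndufa4l2 is its hypoxia-induced paralogue. Ndufa4 had 5.50, 6.10 and 6.15 in Itpr2KO livers, against 5.86, 5.86 and 5.76 in WT livers. Ndufa4l2 had -2.05, -1.67 and -1.0005 in Itpr2KO livers, against -1.80, -2.44 and -2.26 in WT livers, so Itpr2KO 3 and Itpr2KO 2 were the highest arrays and Itpr2KO 1 lay among the WT arrays. The change of Ndufa4l2 was 0.59 ± 0.30 (SE), or 1.51-fold, with an adjusted limma p of 0.811 and an exact permutation p of 0.20. It was 0.30 without Itpr2KO 3, 0.83 without Itpr2KO 1, and 0.29 under normexp correction.

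Complex V, the ATP synthase, had 17 measured subunits with a median change of 0.00 and 8 lower means. Atp5b, the catalytic beta subunit, had 6.57, 6.97 and 6.99 in Itpr2KO livers, against 6.62, 6.69 and 6.75 in WT livers, a change of 0.15 ± 0.16 (SE). Atp5a1, the alpha subunit, changed by 0.00 ± 0.14 (SE). Atp5h, the stator subunit d, had 5.28, 5.80 and 5.95 in Itpr2KO livers, against 5.90, 5.69 and 5.84 in WT livers, a change of -0.13 ± 0.20 (SE).

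Atp5e, the epsilon subunit of the central stalk, had 6.76, 6.91 and 7.28 in Itpr2KO livers, against 6.99, 6.97 and 6.92 in WT livers. Atp5o, the subunit that confers oligomycin sensitivity, had 2.88, 3.21 and 3.46 in Itpr2KO livers, against 3.25, 3.17 and 3.31 in WT livers. In Atp5e and Atp5o the Itpr2KO arrays were again both the lowest and the highest of the 6. Atp5j2 and Atp5k lacked WT 1, where their spots were marked as outliers, and changed by -0.03 and 0.04 on the 5 arrays left. With the outlier spots kept, the changes were 0.57 for Atp5j2 and 0.16 for Atp5k. The value of this Atp5j2 probe thus rests on leaving that spot out. A second probe of each gene, measured on all 6 arrays, changed by -0.06 for Atp5j2 and -0.05 for Atp5k.

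The genes Atp5g1, Atp5g2 and Atp5g3 encode the same mature subunit c of the rotor ring with different import peptides. Atp5g1 had 5.96, 6.26 and 6.33 in Itpr2KO livers, against 6.04, 6.11 and 5.99 in WT livers. Atp5g2 had 6.14, 6.85 and 6.77 in Itpr2KO livers, against 6.65, 6.62 and 6.54 in WT livers. Atp5g3 had 6.27, 6.51 and 6.68 in Itpr2KO livers, against 6.46, 6.56 and 6.48 in WT livers. Their changes were 0.14, -0.02 and -0.02, and Itpr2KO 1 was the lowest array for all 3.

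**Figure D2:**
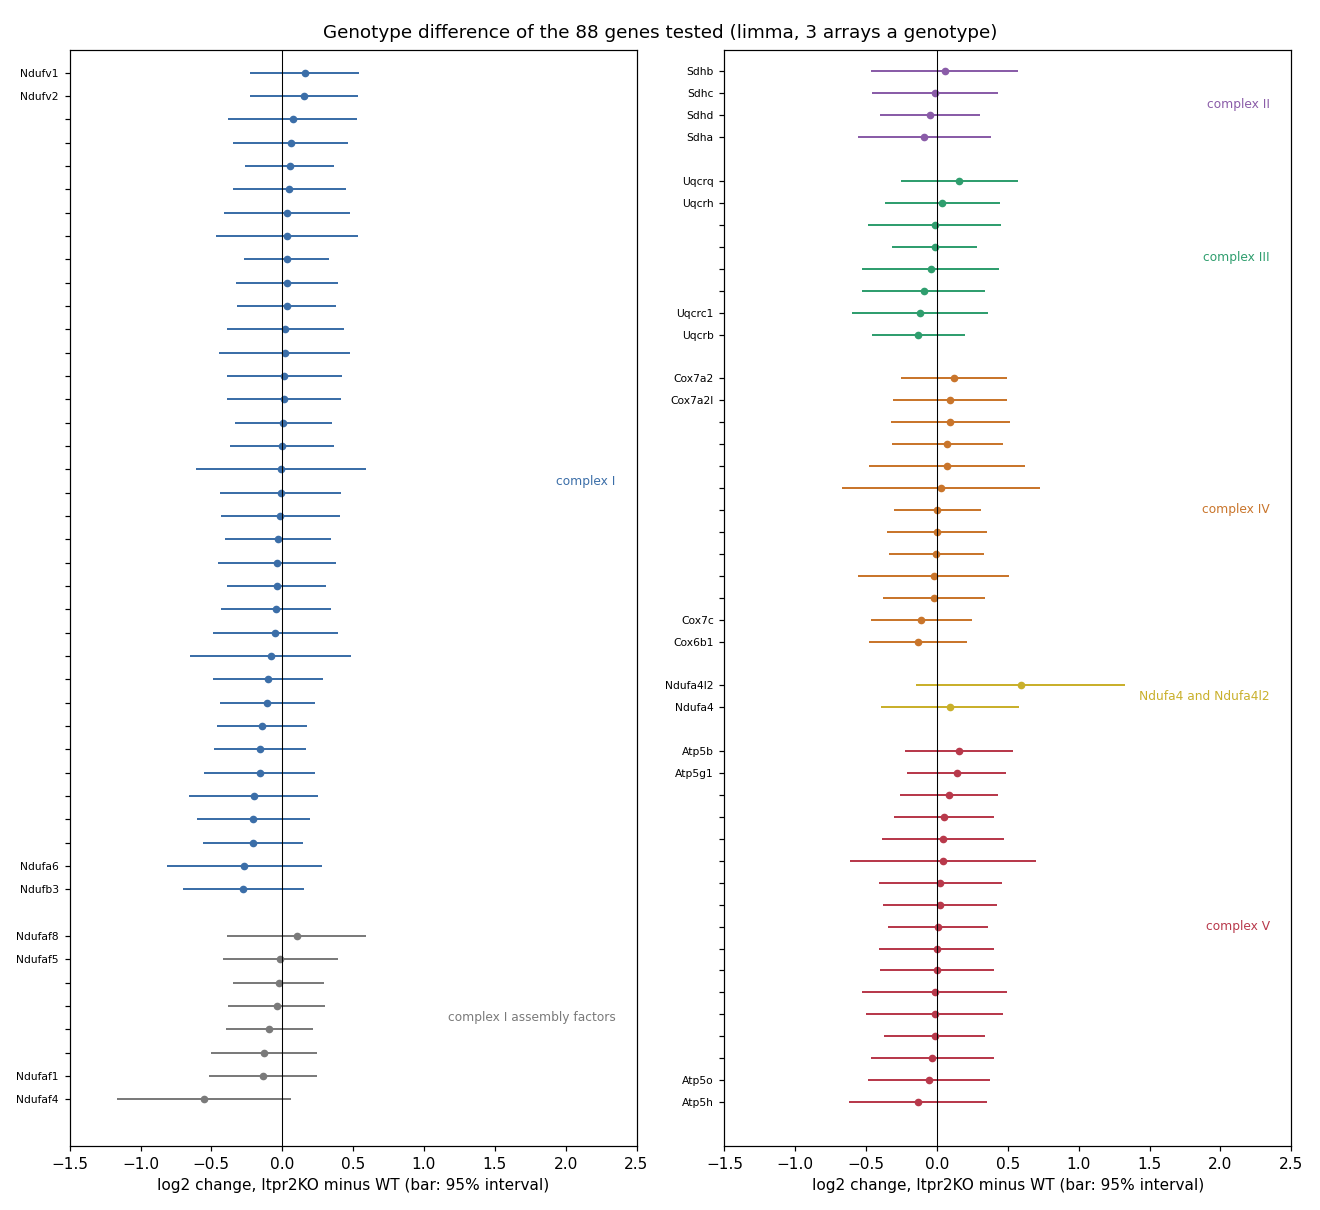
Log2 change, Itpr2KO minus WT, of each of the 88 genes tested (points) with its 95% interval (bars), ordered by size within each complex, with names for the 2 highest and the 2 lowest changes of each group. Every interval includes 0, and the points farthest from 0 are Ndufaf4 at -0.55 and Ndufa4l2 at 0.59.

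Several members could not be tied to a unique transcript with certainty. The gene table lists named pseudogenes for 10 of the 90, whose transcripts or copies could share a probe's sequence. Several probes of the same gene passed the filter in 23 members. Their changes differed in sign in 10 of these. Over all 23, the changes of a gene's probes differed by a median of 0.09 and by at most 0.33, in Atp5c1, whose probes had the same sign.

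The members varied together from liver to liver. Measured from each gene's own mean over the 6 arrays, the median deviation of the 88 genes was -0.23 on Itpr2KO 1 and 0.15 on Itpr2KO 2, against 0.00, 0.05 and -0.03 on WT 1, WT 2 and WT 3. On Itpr2KO 1 only 5 of the 88 lay above their own mean, against 46.3% of all genes. On Itpr2KO 2 it was 74 of the 88, against 53.8% of all genes. These directions on Itpr2KO 1 and Itpr2KO 2 were the same under quantile scaling, at -0.17 and 0.10, and under median centring, at -0.23 and 0.26. All genes had medians of -0.02 and 0.13 on these arrays under median centring. On WT 2 the members' median was 0.13 under quantile scaling, with 76 of the 88 above their own mean, against 69 on Itpr2KO 2. Under median centring it was 0.15 on WT 2, against 0.07 over all genes.

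On Itpr2KO 3 the median was 0.10, against 0.03 over all genes. It was -0.02 under quantile scaling, against -0.03 over all genes, and -0.12 under median centring, against -0.20 over all genes, so its sign changed with the scaling while it lay above the median of all genes on each of these 3 scales. Other genes with a mean level of at least 5, of which there were 1195, had medians of -0.09, 0.06 and 0.18 on the Itpr2KO arrays and of -0.02, -0.12 and -0.01 on the WT arrays. Of the members, 63.6% reach that level, against 6.67% of the other genes. Under quantile scaling the other bright genes had -0.01 on Itpr2KO 1, 0.00 on Itpr2KO 2 and 0.01 on Itpr2KO 3. Under median centring they had -0.09, 0.17 and -0.04 on these arrays. On Itpr2KO 3 the members thus lay below the other bright genes on each of the 3 scales.

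The complexes shared this pattern. On Itpr2KO 1 the subunits of complexes II, III, IV and V all lay below their own mean, at 4, 8, 13 and 17 genes, and in complex I 2 of the 36 lay above it. The complexes' medians on that array ran from -0.31 for complex III to -0.19 for complex IV. On Itpr2KO 2 they ran from 0.11 for complex IV to 0.33 for complex II.

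On Itpr2KO 3 the complexes differed, with 17 of 17 complex V genes and 1 of 4 complex II genes above their own mean. The medians there were 0.19 for complex V and -0.07 for complex II. Under median centring the medians were -0.04 for complex V and -0.29 for complex II, against -0.20 over all genes, with 6 of the 17 complex V genes above their own mean, against 4903 of the 17991 genes. The assembly factors followed the subunits less closely, with medians of -0.10 on Itpr2KO 1 and 0.03 on Itpr2KO 2. Of the 8, 3 lay above their own mean on Itpr2KO 1, 4 on Itpr2KO 2 and 7 on WT 3. Ndufaf1, Ndufaf6, Ndufaf7 and Ndufaf8 lay below their own mean on Itpr2KO 1 and above it on Itpr2KO 2, as most subunits did. No test was made of these differences between complexes.

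**Figure D3:**
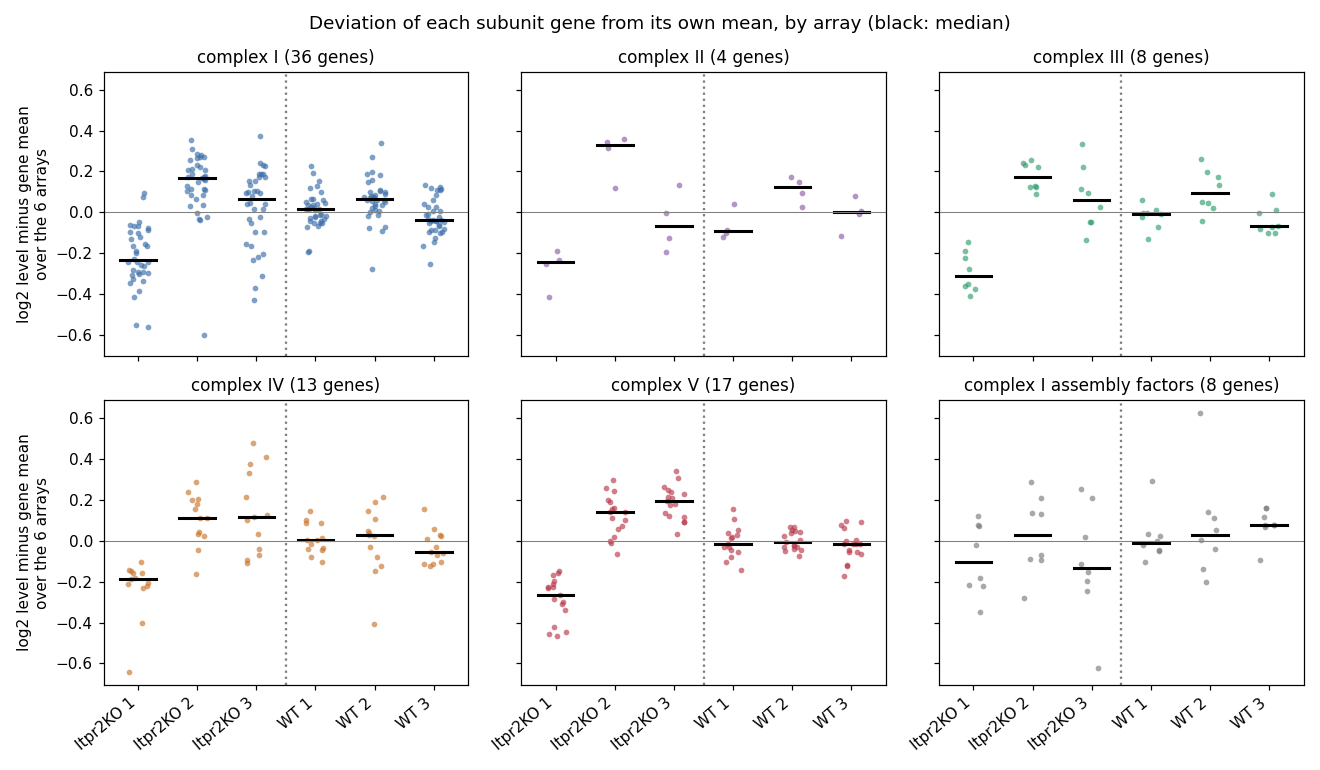
Deviation of each gene from its own mean over the 6 arrays (log2, vertical axis) by array (horizontal axis) in complexes I to V and the complex I assembly factors, with each point a gene and the black line the median. The subunits are low on Itpr2KO 1, with 0 of the genes of complexes II to V above their own mean, and mostly high on Itpr2KO 2.

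Each slide held both genotypes, with Itpr2KO 1, WT 1 and WT 2 on slide 1 and Itpr2KO 2, Itpr2KO 3 and WT 3 on slide 2. Within slide 1 the median change of the members was -0.24 and 83 of the 88 were lower in the Itpr2KO liver, against a median of -0.02 over all genes with 9429 of 17991 lower. Within slide 2 the median was 0.17 and 20 of the 88 were lower, against 0.03 over all genes with 8218 of 17991 lower. The other genes with a mean level of at least 5 had medians of -0.03 on slide 1 and 0.15 on slide 2. Under quantile scaling the members' median was -0.25 on slide 1 and 0.06 on slide 2, and under median centring it was -0.27 and 0.04, with 38 of the 88 lower on slide 2. All genes had medians of -0.02 and 0.00 under quantile scaling and of -0.04 and -0.10 under median centring, with 11366 of 17991 lower on slide 2 in the last case. The sign differed between slides in 71 of the 88 members, against 8772 of the 17991 genes.

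All 17 subunits of complex V were lower in the Itpr2KO liver on slide 1 and higher on slide 2. Under quantile scaling they were again all lower on slide 1, and 3 of the 17 were lower on slide 2, or 6 of the 17 under normexp or median centring. Complex III had 8 of 8 lower on slide 1 and 1 of 8 on slide 2, while the assembly factors had 6 of 8 lower on each slide. The values of slide 1 rest on Itpr2KO 1 as its only Itpr2KO array and those of slide 2 on WT 3 as its only WT array. With the slide as a block, the median was -0.07 and 0 of the 88 passed an unadjusted p of 0.05, against 2.88% of all genes on the higher side and 2.23% on the lower.

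**Figure D4:**
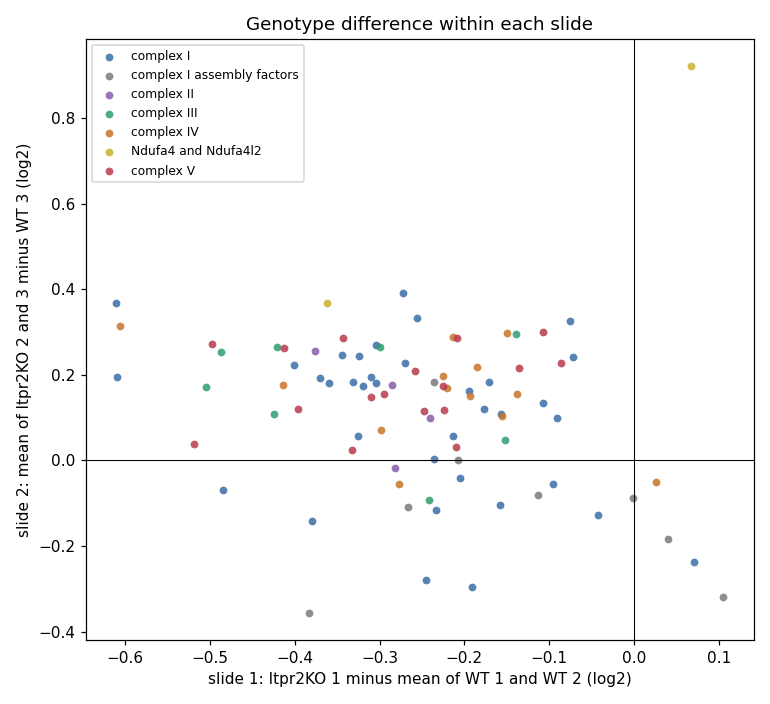
Log2 change within slide 1 (horizontal axis, Itpr2KO 1 minus the mean of WT 1 and WT 2) and within slide 2 (vertical axis, mean of Itpr2KO 2 and 3 minus WT 3) of the 88 genes, coloured by complex. Most points lie at the upper left, lower on slide 1 and higher on slide 2, as in 71 of the 88 genes the signs differ.

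Neutrophil transcripts also differed from array to array. The 7 neutrophil markers tested had a median deviation of 1.98, -1.96 and 1.18 on the Itpr2KO arrays, against -0.41, -0.75 and 0.15 on the WT arrays, and all 7 lay above their own mean on Itpr2KO 1 and below it on Itpr2KO 2. Their summed level was 5.88, 2.54 and 5.25 in Itpr2KO livers and 3.78, 3.14 and 3.96 in WT livers. S100a9, a neutrophil calcium-binding protein, had 5.30, 2.13 and 4.81 in Itpr2KO livers, against 3.31, 2.64 and 3.42 in WT livers. The part of these cells in the members' values was not tested.

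The Kupffer cell markers were lower in Itpr2KO livers for 10 of 10 genes, at a median change of -0.53, and their summed level was 7.46, 7.02 and 7.33 in Itpr2KO livers and 8.33, 7.41 and 7.95 in WT livers. The hepatocyte markers were lower for 2 of 10 genes, at a median of 0.20. The 5 fat cell markers tested, of 9, had median deviations of -2.23, 0.27 and 2.72 on the Itpr2KO arrays, against 0.83, -1.09 and -0.92 on the WT arrays. Their summed level was 6.90, 5.80 and 7.19 in Itpr2KO livers and 6.59, 5.34 and 6.55 in WT livers. That sum was mostly Pck1, at 6.86, 5.67 and 6.90 in Itpr2KO livers and 6.49, 5.18 and 6.51 in WT livers. Fabp4 had 1.70, 1.86 and 3.84 in Itpr2KO livers, against 2.41, 1.89 and 1.23 in WT livers. T and NK cell markers were lower for 7 of 8 genes tested, at a median change of -0.52, with a summed level of 2.04, 2.30 and 3.05 in Itpr2KO livers and of 2.42, 2.84 and 3.20 in WT livers. The part of these cells in the members' values was not tested.

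Nuclear genes of the respiratory chain commonly carry binding motifs for NRF1, for ETS factors such as GABP, for YY1 and for estrogen-related receptors near the start site. RefSeq promoter windows of assembly GRCm38.p6, from 250 bases before to 50 bases after the start, were found for 74 of the 90 members and searched on both strands. The NRF1 core motif gcgcatgc was found in 12 of the 74 windows, or 16.2%, against 3.05% of the windows of 27025 genes. The stretch around it is shown for a gene each of complexes I, II, IV and V and for Ndufaf4. The motif or its reverse complement is in capitals, 5′ to 3′ on the strand of the gene.
Ndufa6, chr15:82354352-82354389, minus strand: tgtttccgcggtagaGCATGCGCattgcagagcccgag
Sdhb, chr4:140961202-140961239, plus strand: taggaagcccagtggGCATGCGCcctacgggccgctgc
Cox6a1, chr5:115349098-115349135, minus strand: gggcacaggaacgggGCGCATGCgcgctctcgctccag
Atp5g2, chr15:102671067-102671104, minus strand: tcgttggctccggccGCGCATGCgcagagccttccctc
Ndufaf4, chr4:24897955-24897992, plus strand: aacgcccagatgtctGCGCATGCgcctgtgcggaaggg

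The 12 genes with the NRF1 motif had a median change of -0.03 and the 61 tested without it 0.00. Their median deviations on the Itpr2KO arrays were -0.23, 0.05 and 0.15 with the motif and -0.23, 0.17 and 0.10 without it.

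The ETS motif ccggaag was found in 19 of the 74 windows, or 25.7%, against 9.93% of all windows, and in 6 of the members of complex V. No match of a motif overlapped a match of another in any member. The following 5 stretches, with the motif or its reverse complement in capitals, stand for complexes I to V in that order.
Ndufs3, chr2:90904727-90904763, minus strand: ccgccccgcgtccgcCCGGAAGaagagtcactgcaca
Sdhd, chr9:50603874-50603910, minus strand: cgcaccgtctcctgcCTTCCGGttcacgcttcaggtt
Uqcr11, chr10:80406866-80406902, minus strand: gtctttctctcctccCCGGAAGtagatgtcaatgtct
Cox6b1, chr7:30626121-30626157, minus strand: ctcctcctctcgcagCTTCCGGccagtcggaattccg
Atp5j, chr16:84835016-84835052, minus strand: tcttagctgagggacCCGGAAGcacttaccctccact

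The 19 genes with the ETS motif had a median change of 0.01 and the 54 tested without it -0.01, with medians of -0.28 and -0.22 on Itpr2KO 1. The YY1 motif aagatggcg was found in 8 members, or 10.8% of windows against 1.64% of all, which were Ndufa9, Ndufc1, Ndufs4, Ndufs6 and Ndufs7 of complex I, Ndufaf8, Atp5j and Atp5j2. It lay after the start in all of them but Atp5j. On Itpr2KO 1 the median deviation was -0.34 for the 8 genes with it and -0.21 for the 65 tested without it, a difference that was not tested. The motif of estrogen-related receptors, tcaaggtca, was found in Atp5g3 and Sdhd, or 2.70% against 0.466%. A match describes letters in the window and shows no binding.

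Muscle isoforms of complex IV, which the choice of genes left out, were high on the 2 arrays with muscle transcripts, 1 of each genotype. Cox6a2 had -4.52, -4.21 and 3.35 in Itpr2KO livers, against 3.79, -3.19 and -3.68 in WT livers. Cox8b had -4.42, -2.07 and 2.72 in Itpr2KO livers, against 2.88, -3.72 and -4.03 in WT livers. Cox7a1 had 0.75, 1.62 and 3.41 in Itpr2KO livers, against 3.68, 1.79 and 1.098 in WT livers.

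All 3 isoforms were highest on Itpr2KO 3 and WT 1, while their ubiquitous counterparts Cox6a1, Cox7a2 and Cox8a varied by less than 0.5 across the 6 arrays. Without Itpr2KO 3 and WT 1 the median change of the 88 members was -0.05, 63 of them had a lower mean, a share of 71.6% against 47.3% of all genes. There too 0 passed an unadjusted p of 0.05, against 3.32% of all genes on the higher side and 3.54% on the lower.

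**Figure D5:**
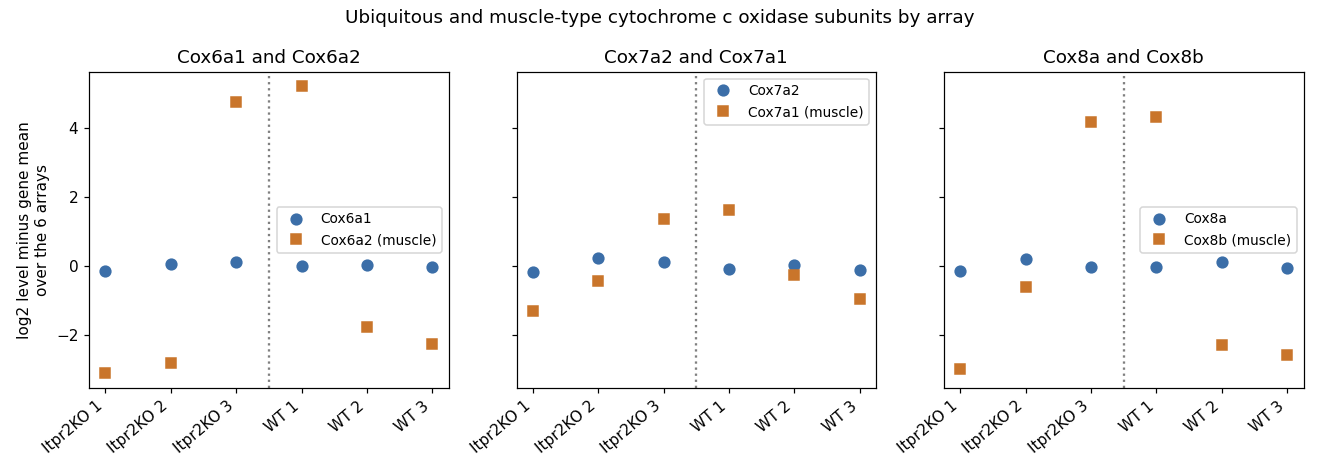
Log2 level minus the gene's own mean over the 6 arrays (vertical axis) for 3 ubiquitous subunits of cytochrome c oxidase (circles) and their muscle isoforms (squares), by array, with Itpr2KO arrays left of the dotted line. The muscle isoforms are high on Itpr2KO 3 and WT 1 and the ubiquitous ones stay near 0.

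Genes around the chain were read from the same fit. Of 16 electron carriers and feeders tested, 11 had a lower mean in Itpr2KO livers, against 45.9% of all genes, with a median change of -0.09, and 1 was lower at an unadjusted p under 0.05, against 2.66% of all genes. This was Cycs, cytochrome c itself, with 5.25, 5.21 and 5.32 in Itpr2KO livers, against 5.60, 5.69 and 5.48 in WT livers. Every Itpr2KO array lay below every WT array, as in 2 of the 16, against 5.15% of all genes. The change of Cycs was -0.33 ± 0.12 (SE) with an adjusted limma p of 0.811. Pdss1, which makes the side chain of ubiquinone, had -2.17, -2.13 and -2.22 in Itpr2KO livers, against -2.03, -1.79 and -2.04 in WT livers.

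Among 29 assembly factors of complexes II to V the median change was -0.10, 20 were lower in mean, against 45.9% of all genes, and 2 were lower at an unadjusted p under 0.05, against 2.66% of all genes. Cox10, which makes a precursor of the heme of complex IV, had -4.54, -5.01 and -5.00 in Itpr2KO livers, against -4.27, -4.46 and -4.21 in WT livers, a change of -0.54 ± 0.17 (SE). Sco1, a copper chaperone of complex IV, had -2.37, -2.13 and -2.32 in Itpr2KO livers, against -1.88, -1.90 and -1.92 in WT livers, a change of -0.37 ± 0.12 (SE). In both genes every Itpr2KO array lay below the WT arrays, as in 4 of the 29, against 5.15% of all genes. Neither passed the adjusted threshold, at 0.811 by limma. On the higher side 1 of the 29 lay apart, against 6.9% of all genes.

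Of 17 genes of the tricarboxylic acid cycle and pyruvate dehydrogenase, 15 had a lower mean in Itpr2KO livers, against 45.9% of all genes. Against 6.13% of all genes, 0 of the 17 passed an unadjusted p of 0.05. Their median change was -0.14, and their median deviations were -0.13, 0.16 and -0.18 on the Itpr2KO arrays, against -0.01, 0.26 and 0.02 on the WT arrays. Pdha1, a subunit of pyruvate dehydrogenase, had 0.99, 0.98 and 0.53 in Itpr2KO livers, against 1.25, 1.4015 and 1.05 in WT livers. Idh3a, of the calcium-sensitive isocitrate dehydrogenase, had 1.86, 1.85 and 1.396 in Itpr2KO livers, against 1.90, 2.41 and 1.85 in WT livers. Pdha1 did not overlap between the genotypes, 1 of the 17 on the lower side, against 5.15% of all genes. Idh3a overlapped.

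Among 16 regulators of mitochondrial genes the median change was 0.04, and 7 were lower in Itpr2KO livers, against 45.9% of all genes. Nrf1, whose protein binds the motif shown above, had -0.74, -0.09 and -0.35 in Itpr2KO livers, against -1.18, -0.62 and -0.90 in WT livers, a change of 0.51 ± 0.22 (SE). Yy1 had 0.85, 1.12 and 1.07 in Itpr2KO livers, against 0.68, 0.75 and 0.87 in WT livers. Neither passed an unadjusted p of 0.05. Of the 16 regulators, 2 lay apart on the higher side and 0 on the lower, against 6.9% and 5.15% of all genes.

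For adenine nucleotide exchange and uncoupling, 6 of 10 tested were lower in Itpr2KO livers, against 45.9% of all genes, and the median change was -0.12. At an unadjusted limma p under 0.05, 1 of the 10 was lower, which was Ucp3, against 2.66% of all genes. Ucp3, an uncoupling protein best known from muscle, had 0.19, -0.48 and -0.20 in Itpr2KO livers, against 0.46, 0.32 and 0.50 in WT livers, a change of -0.59 ± 0.19 (SE) and an adjusted limma p of 0.811. Ucp2, a relative known from macrophages, had 0.02, -0.69 and -0.28 in Itpr2KO livers, against 0.18, 0.03 and 0.26 in WT livers. Every Itpr2KO array lay below the WT arrays in both, so 2 of the 10 lay apart on the lower side, against 5.15% of all genes. In Ucp2 the nearest arrays were Itpr2KO 1 at 0.019 and WT 2 at 0.027.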

How the data were processed

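Liver total RNA of 3 Itpr2KO and 3 WT mice was labelled with Cy3 and read on 1-colour arrays. The deposited scanner tables hold intensity values with the background already subtracted. The software was Agilent Feature Extraction, of which the file headers give release 11.5.1.1 and the submitters' processing notes 10.7.3.1, on an array design of build mm9 per the file headers. A second deposited table holds log2 values that the authors made from the same arrays. Its column medians were -0.0127, 0.0106 and 0.00617 for Itpr2KO 1, 2 and 3 and 0.00207, -0.0094 and 0.00497 for WT 1, 2 and 3. Its columns for Itpr2KO 2 and 3 correlated best with the scanner values of Itpr2KO 3 and 2, after centring each probe. Scale and centring of the matrix are not stated. Higher values mean more signal, and the scanner tables were used here.

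From the 44397 spots per array, 1377 control spots and spots marked as outliers were dropped, and replicate spots were averaged by probe. Signals were taken as log2 minus each array's 75th percentile. Accessions were matched to RefSeq symbols (GRCm38.p6), giving 28330 of 39429 probes a symbol and 11099 none. Probes had to be well above background in each of the 3 arrays of a genotype, and a gene was represented by its brightest probe. Genotypes were compared by limma 3.58.1 in R 4.3.3 (two-sided, Benjamini-Hochberg over 17991 genes). The procedure was tested on simulated data. Alternatives were other scalings, filters and probe rules, normexp, slide and replicate blocks, array weights, and arrays left out. Normexp was planned on mean signals and run on median signals.

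Members, lists and the rule for named genes were chosen with earlier results of these data known. Values on every array are given for the 2 brightest genes and the 2 largest changes in each direction per complex, for paralogues, and for the 2 smallest p of each other list. Other members and S100a9 were named after their values were seen. The values of 1 member are not reported here. Cell type markers are described by counts and medians.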

Additional observations from a re-analysis of the deposited data

How the results depend on the processing

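No member passed the adjusted threshold under any of the 18 alternatives that allow a test. The 1 gene called in all was lost (0 genes) with normexp, with the filter on all 6 arrays, with the replicate block, and without Itpr2KO 3 and WT 1, and numbered 0 to 2 when each array was left out in turn. The number of members with a lower mean was 75 with normexp and 76 with median centring, against 49.5% and 60.6% of all genes. It was 83 within slide 1 and 20 within slide 2, against 9429 and 8218 of all 17991 genes. With arrays left out in turn it ran from 20 without Itpr2KO 1 to 69 without Itpr2KO 2, against 43.6% and 46.7% of all genes. With the slide as a block 79.5% of the members were lower, against 48.2% of all genes. The median change of the members ran from -0.10 without Itpr2KO 2 to 0.12 without Itpr2KO 1, and that of complex IV from -0.051 without Itpr2KO 3 to 0.14 without Itpr2KO 1. Within slide 1 the medians were -0.24 for all members, -0.25, -0.28, -0.36, -0.21 and -0.26 for complexes I to V. Within slide 2 they were 0.17 for all members, 0.17 for complex I, 0.21 for complex III and 0.17 for complex IV. The cause of these shifts was not tested. Among the members reported here, unadjusted p-values under 0.05 appeared for Ndufaf4 with the replicate block and without Itpr2KO 1 or WT 3, and for Ndufa4l2 without Itpr2KO 1. The replicate numbers do not pair the livers, since arrays of the same number correlated at -0.19, 0.04 and -0.28 in their deviations from the genotype means. With the replicate block the median was -0.01, and the change of Ndufaf4 kept its size (-0.55, limma adjusted p = 0.772). With 3 arrays a genotype, the 95% interval still allows a change of 1.5-fold or more for 14 of the 88 members.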
